A study of Mus musculus with 6 samples.

Results

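The 10 genes described here govern how macrophages sense and dispose of cholesterol, and they were chosen by name: the liver X receptor (LXR) genes Nr1h2 and Nr1h3, their partner Rxra, the cholesterol exporters Abca1 and Abcg1, the LXR targets Mylip and Lpcat3, the oxysterol enzyme Ch25h, and the cholesterol ester enzymes Soat1 and Nceh1. They are 10 of the 54532 genes listed in each library, and all of them were found by symbol in GENCODE M21 (GRCm38). RNA-seq of poly(A) RNA was performed on 6 libraries of iBMDMs, which are mouse bone marrow-derived macrophages kept dividing by the viral oncogenes v-raf and v-myc. The cells of 3 libraries carried a control shRNA (control) and those of the other 3 an shRNA to Pgam5 (PGAM5 KD), and both groups were kept for 4 hours with LPS at 100 ng/ml. The comparison asks how knockdown of PGAM5, a mitochondrial phosphatase, alters the response of macrophages to LPS. No library came from untreated cells, so the values are levels after LPS and not inductions by it. The labels name 1 shRNA per group, so an effect of Pgam5 and any other difference between the lines cannot be told apart. Whether replicates were separate cultures or infections is not stated, and p-values measure only the spread between these libraries.

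LXR-alpha (Nr1h3) and LXR-beta (Nr1h2) are nuclear receptors that bind oxysterols, the oxidized forms of cholesterol, and act on DNA as heterodimers with a retinoid X receptor such as RXR-alpha (Rxra). When a macrophage takes up more cholesterol than it needs, they turn on Abca1, which hands cholesterol to lipid-poor apolipoprotein A-I, and Abcg1, which exports it to HDL particles. They also turn on Mylip, whose product IDOL marks the LDL receptor for degradation, and Lpcat3, which places polyunsaturated fatty acids into phospholipids. Cholesterol that is not exported is esterified by SOAT1 for storage in lipid droplets and is set free again by hydrolases such as NCEH1.

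LXR-RXR dimers bind a repeat of the hexamer AGGTCA with 4 bases between the copies (DR4, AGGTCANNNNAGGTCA). The 250 bases before each RefSeq start (GRCm38.p6) were searched on both strands for this element, with up to 3 mismatches in its 12 fixed bases. Of the 10 genes, 9 had an entry, with 11 start sites between them, and Abcg1 had none. A DR4 match was found before 2 of the 11 start sites, 1 of Abca1 and 1 of Rxra, and a match of this kind was present in 18.5% of all 32851 promoters. Both windows are printed, since they belong to the exporter that is the best known LXR target and to the receptor with the largest difference in the set, each 5′ to 3′ on the strand of its gene with the DR4 match in capitals. The Abca1 window is chr4:53159896-53160145 (minus strand) and the Rxra window chr2:27709042-27709291 (plus strand).
Abca1: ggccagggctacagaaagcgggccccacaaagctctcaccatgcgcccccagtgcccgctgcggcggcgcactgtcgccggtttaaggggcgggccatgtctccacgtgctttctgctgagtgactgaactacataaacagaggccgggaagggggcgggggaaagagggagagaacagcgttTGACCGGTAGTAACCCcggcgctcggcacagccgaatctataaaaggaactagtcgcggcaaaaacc
Rxra: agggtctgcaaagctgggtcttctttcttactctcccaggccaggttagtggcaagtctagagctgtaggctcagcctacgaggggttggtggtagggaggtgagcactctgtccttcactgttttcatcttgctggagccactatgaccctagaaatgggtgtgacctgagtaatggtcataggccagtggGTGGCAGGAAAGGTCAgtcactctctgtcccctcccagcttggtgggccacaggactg
The Abca1 match lies 67 to 52 bases before the start and reads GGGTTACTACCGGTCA on the opposite strand, with 3 mismatches to the element. The Rxra match lies 58 to 43 bases before the second of the 2 listed starts of that gene, also with 3 mismatches. Binding of LXR was not measured in these cells, and a match describes only the letters.

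The files hold FPKM, fragments scaled to exon length and to the depth of the library, and the depth recovered from them was between 18163464 and 24388917 fragments per library. Pgam5 was at 17.1, 13.0 and 13.4 FPKM in control and at 4.33, 5.75 and 4.53 FPKM in PGAM5 KD libraries, so every library matched its label. Of 8 macrophage markers, 7 had a mean of at least 1 FPKM (Mrc1 did not), with summed levels from 2802 to 2894 FPKM in control and from 2526 to 2545 FPKM in PGAM5 KD libraries. None of the 7 neutrophil, 6 fibroblast and 6 lymphocyte markers reached a mean of 1 FPKM, their summed levels stayed at or below 0.568 FPKM in every library, and Ly6g, Mpo, Col1a2, Col3a1 and Cd3e were listed at 0 throughout. Fold changes are differences of log2(FPKM + 1), PGAM5 KD minus control, given with their standard error (SE) and tested with limma over the 10540 genes with a mean of at least 1 FPKM and called at a Benjamini-Hochberg adjusted p under 0.05. By this rule 31.7% of all genes tested were called (16.8% higher and 14.9% lower in PGAM5 KD), and for 47.1% the libraries of the groups did not overlap. Scaled to TPM, 1088 genes were called higher and 2282 lower, against 1771 and 1575 with FPKM as deposited.

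Within the set, neither of the 2 LXR genes passed the test, while 5 other genes did. Rxra, Nceh1, Abcg1 and Soat1 fell and Lpcat3 rose in PGAM5 KD cells, Abca1 and Mylip did not pass either, and Ch25h was too low to be tested. Of the 9 genes tested, 5 were called, 4 of them lower and 1 higher, which is 55.6% beside the 31.7% of all genes tested. The set was chosen with earlier results of these data known, so this share describes it and is not a test. With no filter, or without PGAM5 KD replicate 2 or 3 or control replicate 2, only 3 were called, all lower. The libraries of the groups did not overlap for 6 of the 9, 5 lower and 1 higher, beside 47.1% of all genes (22.9% lower and 24.2% higher). The median log2 fold change of the 9 was -0.22, beside 0.013 over all genes tested. With limma, 0 of the 9 also had an absolute log2 fold change above 1, the further threshold for differential expression that 1.32% of all genes passed (0.787% higher and 0.531% lower), and 5 had an unadjusted p under 0.05. Rxra passed that threshold with voom on recovered fragments (-1.10), scaled to TPM (-1.01) and with a pseudocount of 0.1 (-1.04). In bulk RNA, fewer cells that express a gene and less RNA per cell cannot be told apart.

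**Figure D1:**
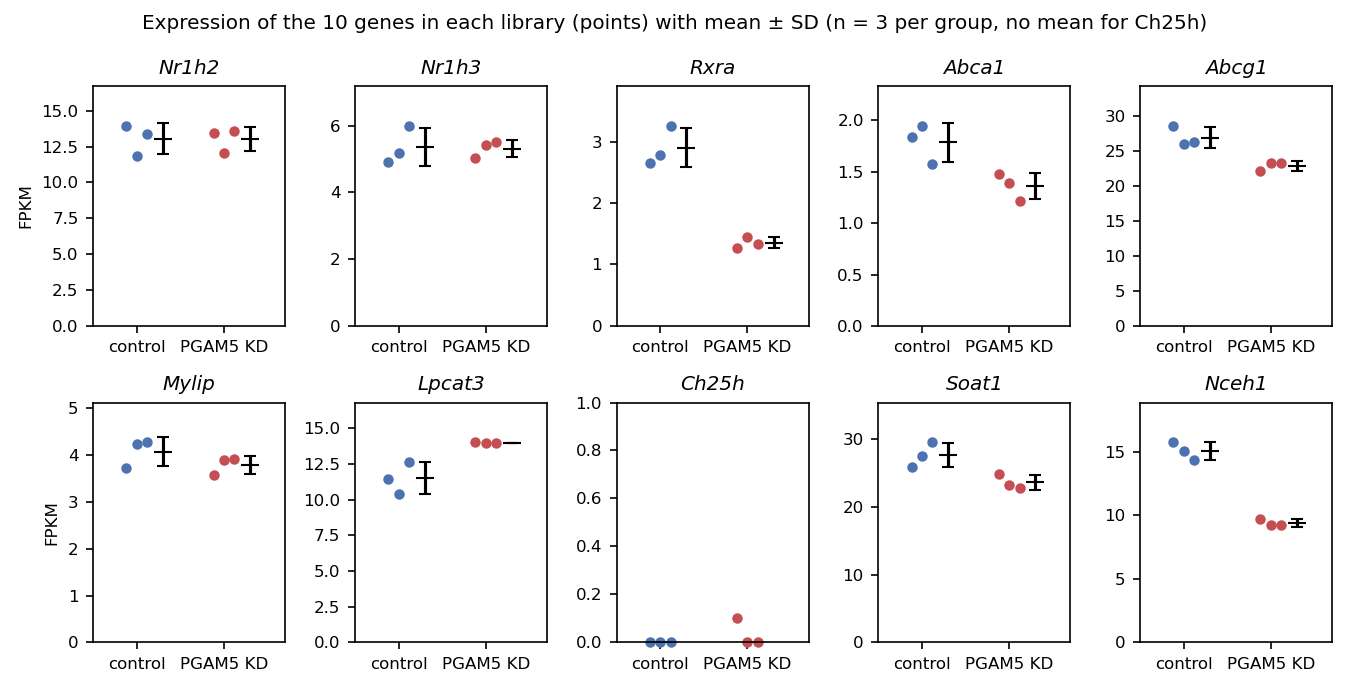
Expression (FPKM, linear axes from 0) of each of the 10 genes in the 3 control and 3 PGAM5 KD libraries, 1 point per library, with the mean and SD beside the points except for Ch25h. The points of the groups are apart for Rxra, Abca1, Abcg1, Soat1 and Nceh1 (PGAM5 KD lower) and for Lpcat3 (PGAM5 KD higher), and they overlap for Nr1h2, Nr1h3 and Mylip, while Ch25h is listed at 0 in 5 of the 6 libraries.

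Nr1h2 (ENSMUSG00000060601), which encodes LXR-beta, is located at chr7:44549616-44553951 (GRCm38, minus strand). It was at 13.9, 11.8 and 13.3 FPKM in control and at 13.4, 12.1 and 13.6 FPKM in PGAM5 KD libraries, with from 735 to 1114 fragments per library. The ranges lay on top of each other, with a log2 fold change of 0.0006 (SE 0.073, 95% interval -0.17 to 0.17, limma adjusted p = 0.997). Nr1h3 (ENSMUSG00000002108), which encodes LXR-alpha, is located at chr2:91184061-91202834 (GRCm38, minus strand). It was at 4.90, 5.18 and 5.99 FPKM in control and at 5.03, 5.41 and 5.49 FPKM in PGAM5 KD libraries. The PGAM5 KD values fell inside the control range, with a log2 fold change of -0.0079 (SE 0.079, 95% interval -0.19 to 0.18, limma adjusted p = 0.952). These 95% intervals reach to about 0.19 from 0 on this scale, for FPKM as deposited. Scaled to TPM, the log2 fold changes were -0.076 (SE 0.080) for Nr1h2 and -0.083 (SE 0.087) for Nr1h3. With voom on recovered fragments the SE of Nr1h3 was 0.135. In Nr1h3, 34 bases of exon are shared with Gm13783, which was at most at 0.728 FPKM. Nr1h2 was the more abundant LXR mRNA in every library, at 2.84, 2.28 and 2.23 times the FPKM of Nr1h3 in control and 2.67, 2.23 and 2.48 times in PGAM5 KD. The mean ratio was 2.45 ± 0.339 in control (SD, n = 3) and 2.46 ± 0.219 in PGAM5 KD (SD, n = 3), and log2 of the ratio differed by 0.0094 (exact two-sided permutation test, p = 0.9).

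Rxra (ENSMUSG00000015846) is located at chr2:27676440-27762957 (GRCm38, plus strand) and encodes the retinoid X receptor that completes the LXR dimer. It was at 2.65, 2.79 and 3.25 FPKM in control libraries and at 1.27, 1.45 and 1.33 FPKM in PGAM5 KD libraries, from between 144 and 347 fragments. All 3 PGAM5 KD libraries were far below the lowest control library, and the mean fell by 53.3%, from 2.90 ± 0.317 to 1.35 ± 0.0907 FPKM (SD, n = 3 each). The log2 fold change was -0.73 (SE 0.097, limma adjusted p = 0.00188), the largest in size among the 9 genes tested, and it reached -1.10 with voom on the recovered fragments (limma adjusted p = 1.88e-05). The related receptor gene Rxrb, whose product can take the same place in the dimer, was singled out after its values were seen. It was the main RXR mRNA in both groups, at 17.6 ± 1.08 FPKM in control and 20.0007 ± 0.438 FPKM in PGAM5 KD libraries (SD, n = 3 each), with a log2 fold change of 0.17 (SE 0.052, limma adjusted p = 0.0414). That call was lost in 10 of 16 alternatives, with adjusted p up to 0.2 by limma, and among them without PGAM5 KD replicate 1, 2 or 3 or control replicate 2 or 3. Rxra made up 12.3%, 13.8% and 16.3% of the summed FPKM of both genes in control and 5.97%, 6.92% and 6.11% in PGAM5 KD libraries. The share was lower in each PGAM5 KD library (exact two-sided permutation test, p = 0.1, the smallest that 3 libraries against 3 allow), while Rxrg, the remaining member of the family, was listed at 0 in all 6 libraries.

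Abcg1 (ENSMUSG00000024030), at chr17:31057675-31117988 (plus strand), was the more abundant of both exporter mRNAs. It was at 28.6, 26.0 and 26.3 FPKM in control and at 22.1, 23.2 and 23.3 FPKM in PGAM5 KD libraries. Every PGAM5 KD library was below every control library, with a mean of 22.9 ± 0.674 against 26.9 ± 1.44 FPKM (SD, n = 3 each), a fall of 15.1%. The log2 fold change was -0.23 (SE 0.049, limma adjusted p = 0.0138). Abca1 (ENSMUSG00000015243), at chr4:53030787-53159895 (minus strand), was at 1.84, 1.95 and 1.58 FPKM in control and at 1.48, 1.39 and 1.22 FPKM in PGAM5 KD libraries, from between 262 and 407 fragments. The libraries did not overlap, but the highest PGAM5 KD library was only just below the lowest control library. The mean of Abca1 was 23.8% lower, and its log2 fold change of -0.24 (SE 0.11, 95% interval -0.49 to 0.010) missed the threshold (limma adjusted p = 0.13). With voom on recovered fragments Abca1 was called (-0.40, limma adjusted p = 0.0216). With a pseudocount of 0.1 in place of 1, the log2 fold change was -0.37 for Abca1, again not called, and -0.23 for Abcg1. The FPKM of Abcg1 was 15.2 ± 1.69 times that of Abca1 in control and 16.9 ± 2.07 times in PGAM5 KD (SD, n = 3 each), and these ratios overlapped (exact two-sided permutation test, p = 0.4). A difference in the proportion of the 2 exporters was thus not resolved from the spread of the libraries.

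**Figure D2:**
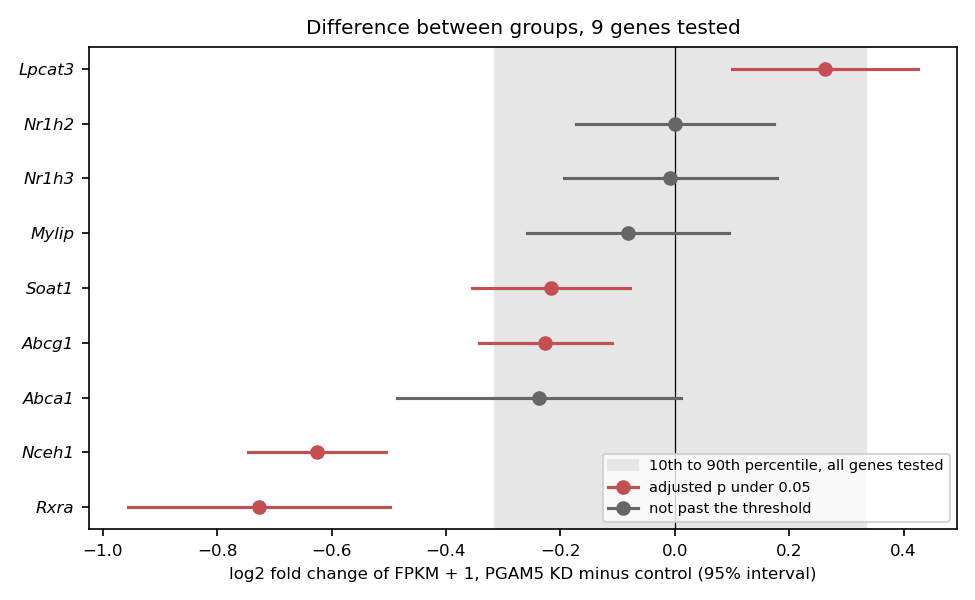
Log2 fold change of FPKM + 1 (PGAM5 KD minus control) with its 95% interval for the 9 genes tested, beside the 10th to 90th percentile of all 10540 genes tested (-0.31 to 0.33, shaded). Rxra and Nceh1 lie outside the shaded range, at -0.73 and -0.63, and the other 7 genes lie inside it, with the intervals of Nr1h2, Nr1h3, Mylip and Abca1 reaching across 0.

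Mylip (ENSMUSG00000038175), at chr13:45389742-45412022 (plus strand), encodes IDOL. It was at 3.71, 4.23 and 4.26 FPKM in control and at 3.56, 3.88 and 3.91 FPKM in PGAM5 KD libraries. The ranges overlapped, and the log2 fold change of -0.082 (SE 0.075, 95% interval -0.26 to 0.094) missed the threshold (limma adjusted p = 0.441). Lpcat3 (ENSMUSG00000004270), at chr6:124663027-124704418 (plus strand), was the only member that rose. It was at 11.5, 10.4 and 12.6 FPKM in control and at 14.0, 13.9 and 14.0 FPKM in PGAM5 KD libraries. The 3 PGAM5 KD values were nearly equal and all above the control range, with a mean 21.4% higher and a log2 fold change of 0.26 (SE 0.068, limma adjusted p = 0.0264). The call was lost without PGAM5 KD replicate 1, 2 or 3 or without control replicate 1 or 2 (adjusted p = 0.0613, 0.0692, 0.0716, 0.0674 and 0.0552 from limma), with no filter on low values (0.0622) and scaled to TPM (0.0765).

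Lpcat3 shares 334 bases of exon with Emg1 on the opposite strand, and the labels do not settle whether the libraries kept strand, so fragments in that stretch cannot be assigned with certainty. Emg1, a ribosome biogenesis gene at 35.6 ± 1.45 FPKM in control and 39.4 ± 0.574 FPKM in PGAM5 KD libraries (SD, n = 3 each), also had a positive log2 fold change, 0.14 (SE 0.040, limma adjusted p = 0.0359), a call lost in 10 of 16 alternatives, including without PGAM5 KD replicate 1, 2 or 3 or control replicate 2 or 3 (limma adjusted p up to 0.277). Lpcat3 took from 17.2% to 20.6% of the fragments of both genes in control and from 19.7% to 20.2% in PGAM5 KD libraries. Depth-scaled fragments summed over both were higher by 0.17 on the log2 scale in PGAM5 KD cells, with no overlap of libraries (exact two-sided permutation test, p = 0.1), and the part of shared fragments in the difference of Lpcat3 was not tested. Among the lysophosphatidylcholine acyltransferase genes Lpcat1 to Lpcat4, Lpcat3 held 20.7% ± 1.63 of the summed FPKM in control and 28.1% ± 0.435 in PGAM5 KD (SD, n = 3 each). Lpcat1, whose product favours saturated fatty acids, fell from 25.2 ± 0.939 to 14.5 ± 0.563 FPKM (SD, n = 3 each, log2 fold change -0.76, SE 0.047, limma adjusted p = 8.36e-05). Lpcat4 rose as Lpcat3 did, from 10.1 ± 0.661 to 12.8 ± 0.295 FPKM (SD, n = 3 each, log2 fold change 0.32, SE 0.056, limma adjusted p = 0.00628). Lpcat2 did not pass the test (-0.040, SE 0.049, limma adjusted p = 0.569). The higher share of Lpcat3 is thus not particular to a rise of that gene.

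Ch25h (ENSMUSG00000050370), at chr19:34473778-34475164 (minus strand), encodes cholesterol 25-hydroxylase, which makes 25-hydroxycholesterol and is known as an interferon-stimulated gene of activated macrophages. It was listed at 0 in control replicates 1, 2 and 3 and in PGAM5 KD replicates 2 and 3, and at 0.101 FPKM, about 3 fragments, in PGAM5 KD replicate 1. A count of 0 allows up to 3 fragments, which is from 0.0887 to 0.119 FPKM in these libraries, for counting error only. The mRNA was thus at or near the limit of detection in both groups, and no fold is given. Its antisense neighbour Gm26902, which shares 159 bases of exon with it, was at most at 0.0595 FPKM. Cyp27a1, which makes 27-hydroxycholesterol in mitochondria, rose from 4.76 ± 0.619 to 6.70 ± 0.777 FPKM (SD, n = 3 each, log2 fold change 0.42, SE 0.11, limma adjusted p = 0.0228). With no filter on low values and without PGAM5 KD replicate 1 or 2 or control replicate 2 or 3, the adjusted p of Cyp27a1 was above 0.05, up to 0.0697 from limma.

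Nceh1 (ENSMUSG00000027698), at chr3:27182965-27284608 (plus strand), encodes a neutral cholesterol ester hydrolase of macrophages. It was at 15.8, 15.1 and 14.4 FPKM in control and at 9.76, 9.27 and 9.22 FPKM in PGAM5 KD libraries, from between 884 and 1601 fragments. The groups were well apart, with a mean 37.5% lower in PGAM5 KD cells (15.07 ± 0.699 to 9.42 ± 0.301 FPKM, SD, n = 3 each) and a log2 fold change of -0.63 (SE 0.051, limma adjusted p = 0.000227). Soat1 (ENSMUSG00000026600), at chr1:156424525-156474331 (minus strand), encodes the enzyme that runs the reverse reaction. It was at 25.9, 27.5 and 29.5 FPKM in control and at 24.9, 23.2 and 22.8 FPKM in PGAM5 KD libraries. All PGAM5 KD libraries were below the control libraries, by a smaller margin than for Nceh1, and the log2 fold change was -0.22 (SE 0.058, limma adjusted p = 0.0299). The call of Soat1 was lost without PGAM5 KD replicate 2 or 3 or control replicate 2 or 3 (adjusted p = 0.0868, 0.092, 0.0741 and 0.0827 from limma) and with no filter on low values (0.0661).

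The proportion of Soat1 to Nceh1 mRNA was higher in PGAM5 KD cells. The FPKM of Soat1 was 1.64, 1.82 and 2.05 times that of Nceh1 in control and 2.55, 2.499 and 2.48 times in PGAM5 KD libraries. The mean ratio was 1.84 ± 0.206 in control and 2.51 ± 0.0369 in PGAM5 KD (SD, n = 3 each, exact two-sided permutation test, p = 0.1), and all PGAM5 KD libraries were above all control libraries. This ratio, like the shares of Rxra and Lpcat3 and the ratio of the exporters, was chosen after the values were seen. Lipa, the lysosomal acid lipase that frees cholesterol from ingested lipoprotein, fell as well, from 139 ± 1.91 to 95.3 ± 1.72 FPKM (SD, n = 3 each, log2 fold change -0.54, SE 0.029, limma adjusted p = 4.28e-05).

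**Figure D3:**
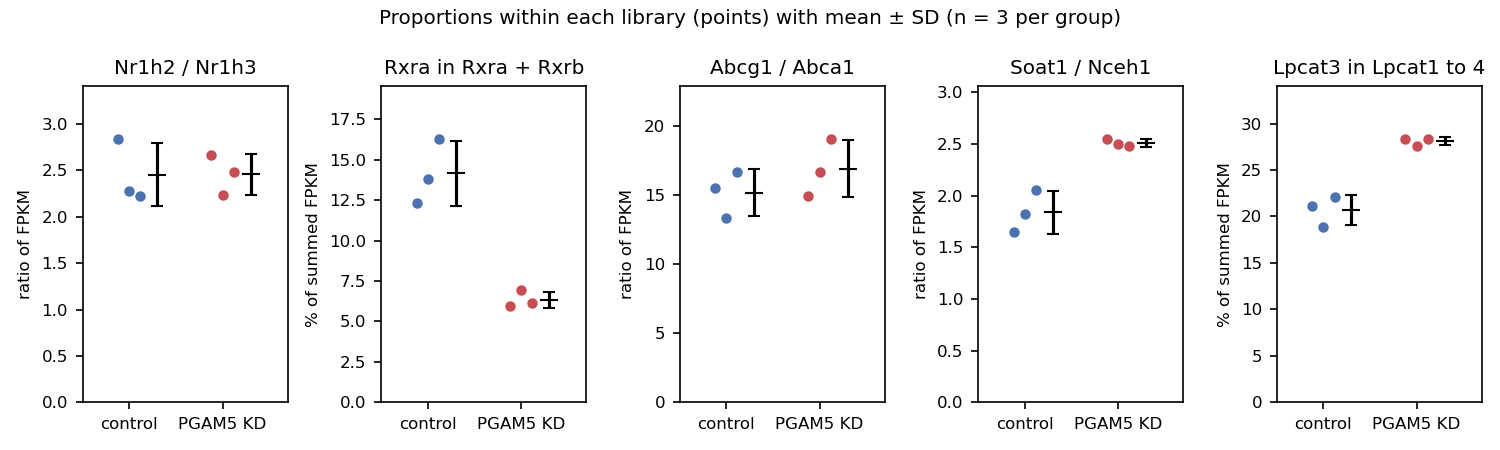
Ratios of FPKM and percentages of summed FPKM within each library (linear axes from 0), 1 point per library, with the mean and SD beside the points. The ratio of Nr1h2 to Nr1h3 (2.45 and 2.46) and that of Abcg1 to Abca1 (15.2 and 16.9) overlap between control and PGAM5 KD libraries, while the share of Rxra (14.2% and 6.33%), the ratio of Soat1 to Nceh1 (1.84 and 2.51) and the share of Lpcat3 (20.7% and 28.1%) do not.

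FPKM is per exon length, so levels can be ranked across the set. In control libraries the mean levels ran from Soat1 (27.6 FPKM) and Abcg1 (26.9 FPKM) through Nceh1 (15.07 FPKM), Nr1h2 (13.04 FPKM), Lpcat3 (11.5 FPKM), Nr1h3 (5.36 FPKM), Mylip (4.07 FPKM) and Rxra (2.90 FPKM) to Abca1 (1.79 FPKM). Neighbours in this order did not overlap between libraries, except Soat1 with Abcg1 and Nr1h2 with Lpcat3. In PGAM5 KD libraries Lpcat3 (14.0 FPKM) and Nr1h2 (13.03 FPKM) stood above Nceh1 (9.42 FPKM), and Rxra (1.352 FPKM) had come down to the level of Abca1 (1.362 FPKM), whose libraries it overlapped. The top pair again overlapped, and the other neighbours did not.

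The wider pathway was described with 6 lists of 96 genes in all, of which 68 were tested. Of these, 11 rose and 21 fell in PGAM5 KD cells, and 36 did not pass the test, which puts 47.1% of those tested past the threshold beside 31.7% of all genes. The lists were chosen with earlier results of these data known, so this share describes them and is not a test. Scaled to TPM, 7 of the genes were called higher and 26 lower. The number called higher was 6 with no filter and without PGAM5 KD replicate 2 or control replicate 2, and 7 without PGAM5 KD replicate 3 or control replicate 3. Among receptor partners and coregulators, 1 of 13 tested genes rose and 4 fell, with a median log2 fold change of -0.14. These 38.5% stand near the 31.7% of all genes. The falls included the histone acetyltransferase genes Ep300 (11.8 ± 0.177 to 8.13 ± 0.383 FPKM, log2 fold change -0.49) and Crebbp (4.91 ± 0.376 to 3.71 ± 0.363 FPKM, -0.33) and the coactivator gene Ncoa3 (18.0 ± 0.885 to 14.8 ± 1.06 FPKM, -0.26). The corepressor gene Ncor1 fell as well (18.5 ± 0.513 to 15.8 ± 0.291 FPKM, -0.21). Crebbp lost its call with no filter and without PGAM5 KD replicate 2 or 3 or control replicate 1 or 3, and Ncoa3 without PGAM5 KD replicate 3 or control replicate 1 or 3, with adjusted p up to 0.0804 and 0.065 from limma.

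Among other LXR target genes, 10 of 18 were tested, 1 rose and 4 fell, with a median log2 fold change of -0.042, where 16.8% of all genes tested were called higher and 14.9% lower. Lpl, the lipoprotein lipase, fell from 59.4 ± 0.785 to 35.6 ± 1.31 FPKM (-0.72, SE 0.038), and Fasn, the fatty acid synthase, from 92.4 ± 3.29 to 65.7 ± 0.435 FPKM (-0.48, SE 0.035). Apoe, the apolipoprotein that carries exported cholesterol, fell from 3.80 ± 0.323 to 2.39 ± 0.287 FPKM (-0.50, SE 0.094). The gene that rose was Scd1, from 9.11 ± 0.723 to 10.8 ± 0.334 FPKM (0.23, SE 0.064). The other 5 tested genes did not pass, among them Srebf1 (0.055, SE 0.058, limma adjusted p = 0.511). Apoc1, Apoc2, Apoc4, Abcg5 and Mertk were listed at 0 in every library. In the list of oxysterol enzymes, receptor and binding proteins, 11 of 21 genes were tested, of which 1 rose and 3 fell, with a median of -0.11, and these 36.4% stand close to the 31.7% of all genes. Gpr183, the receptor by which immune cells migrate towards oxysterols, fell from 12.5 ± 0.958 to 5.32 ± 0.488 FPKM (-1.10, SE 0.079, limma adjusted p = 0.000138), and Osbpl8, an oxysterol-binding protein relative, from 39.3 ± 1.18 to 21.6 ± 0.397 FPKM (-0.84, SE 0.038). Cyp46a1, Cyp7a1, Cyp7b1, Cyp39a1 and Hsd3b7, which make or break down oxysterols, were listed at 0 in every library.

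Genes of sterol uptake, transport and esterification were split, with 4 higher, 4 lower and 8 not past the threshold of 16 tested, and a median of 0.049, beside 16.8% higher and 14.9% lower over all genes. Msr1, a scavenger receptor for modified lipoproteins, rose from 11.6 ± 0.315 to 24.9 ± 0.793 FPKM (1.04, SE 0.044), while Npc1, which moves cholesterol out of the lysosome, fell from 9.79 ± 0.413 to 6.33 ± 0.248 FPKM (-0.56, SE 0.055). Npc2 moved the opposite way to Npc1, from 44.9 ± 0.877 to 54.9 ± 2.24 FPKM (0.28, SE 0.040). In the list of lysophospholipid acyltransferases and phospholipases, 3 of 8 tested genes rose and 2 fell, with a median of 0.14. Besides Lpcat1, Mboat1 fell from 14.1 ± 0.844 to 9.71 ± 0.47 FPKM (-0.50, SE 0.059), and Pla2g4a, the cytosolic phospholipase that frees arachidonic acid, rose from 24.1 ± 0.774 to 38.3 ± 0.610 FPKM (0.65, SE 0.038). Of 10 genes of sterol sensing and SREBP2 control, 1 rose and 4 fell, with a median of -0.041. They included Erlin2 (8.46 ± 0.144 to 4.87 ± 0.355 FPKM, -0.69) and the SREBP retention genes Insig1 (29.0 ± 0.776 to 21.8 ± 0.195 FPKM, -0.39) and Insig2 (4.34 ± 0.0960 to 5.49 ± 0.340 FPKM, 0.28), which moved in opposite directions. In the lists the errors of FPKM are SDs over 3 libraries per group, and each gene said to rise or fall had an adjusted p under 0.05 from limma.

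**Figure D4:**
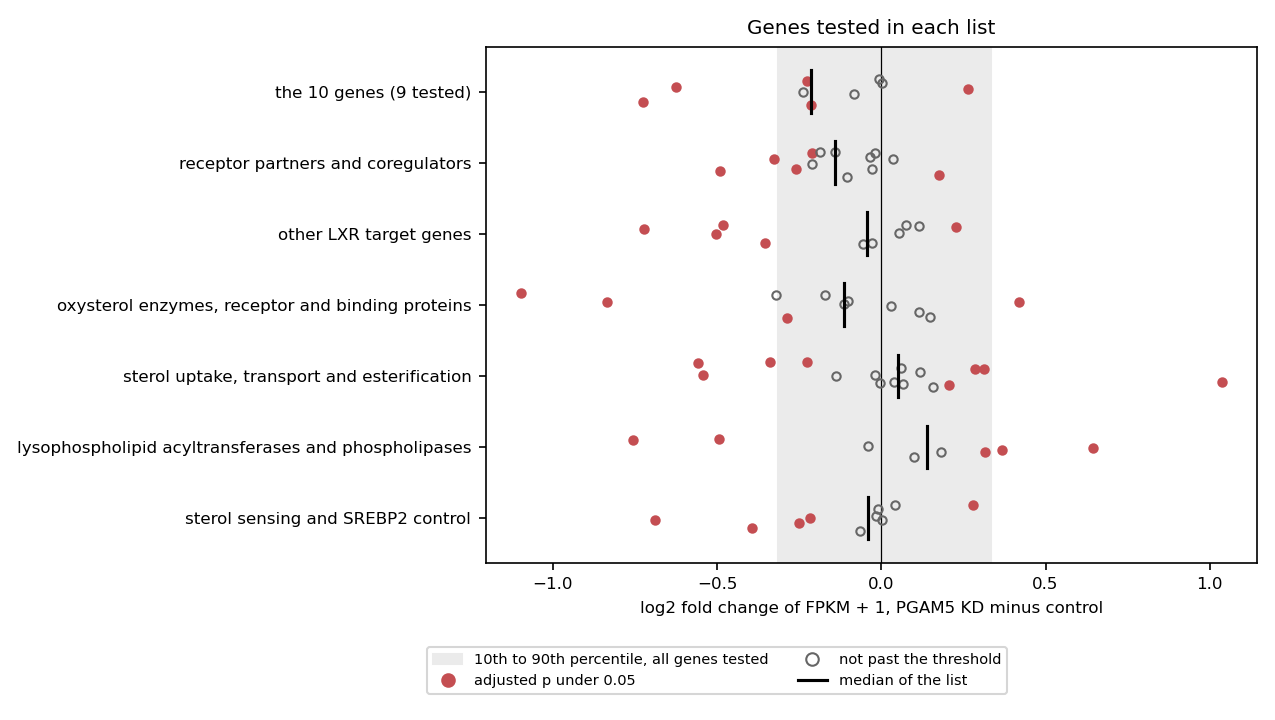
Log2 fold change of FPKM + 1 (PGAM5 KD minus control) of every tested gene in the set of 10 and in the 6 pathway lists, filled where the adjusted p was under 0.05, with the median of each list as a bar and the 10th to 90th percentile of all genes tested shaded. The medians of all lists lie inside the shaded range, and the points reach from -1.10 (Gpr183) to 1.04 (Msr1).

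**Figure D5:**
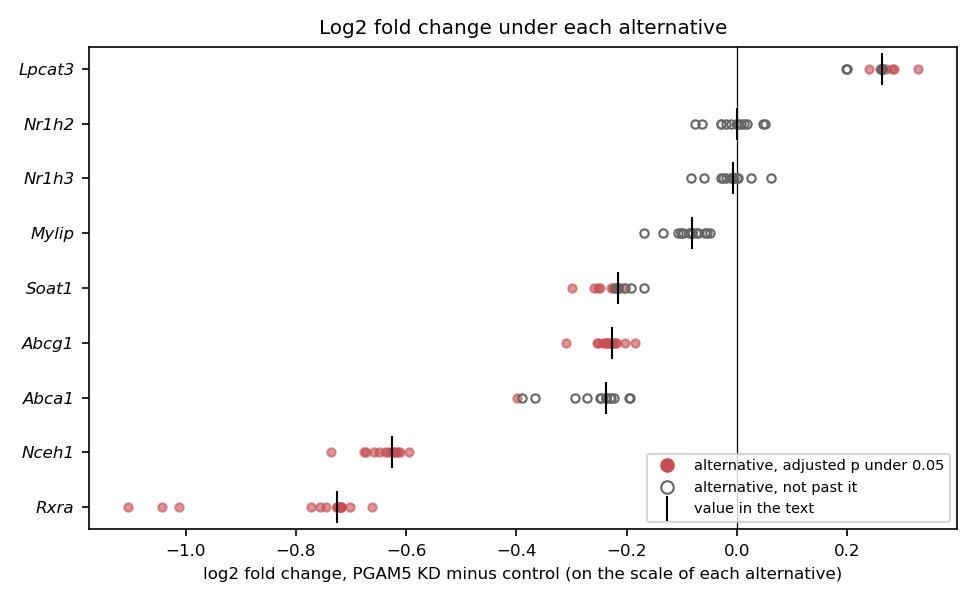
Log2 fold change of the 9 tested genes in the fit reported (bars) and under each of up to 16 alternative fits (points), filled where the adjusted p was under 0.05, each on the scale of its own fit. Rxra, Nceh1 and Abcg1 stay filled and below 0 in every alternative, Lpcat3 and Soat1 keep their direction but lose the threshold in some, and Nr1h2 and Nr1h3 scatter about 0.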

How the data were processed

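RNA was measured in 6 libraries, 3 control and 3 PGAM5 KD, grouped by their titles. Per the submitters' processing notes, reads were aligned to mm10 with HISAT2 2.0.5 and counted with featureCounts 1.5.0-p3; the annotation and strand setting are not given in the sources used here. The authors deposited FPKM per gene and library. Of 54532 gene identifiers, 54495 were in GENCODE M21 (GRCm38), the source of names, coordinates and exon lengths. Depth was recovered from the steps of FPKM at known exon lengths, where 96.8% to 97.1% of values under 1000 fragments came out whole (within 0.01); this held for 8 of the 10 genes, and fragments of Abcg1 and Ch25h are approximate. Replicates differed by more than sampling noise (chi-square over its degrees of freedom, 4.82 to 8.16).

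For genes averaging 1 FPKM or more, log2(FPKM + 1) was compared between groups by limma 3.58.1 (R 4.3.3, mean-variance trend, two-sided, Benjamini-Hochberg over all genes tested), and the fit was tested on simulated data. Single values had exact permutation tests (SciPy 1.17.1). Differential expression used the thresholds of the study's methods. The members and lists were chosen with earlier results of these data known. Named are the members, Pgam5, and from each of 6 lists the 3 called genes with the largest change. Rxrb, Emg1, Ncor1, Scd1, Srebf1, Npc2, Lpcat2, Lpcat4, the marker genes and genes listed at 0 were added. Alternatives were a pseudocount of 0.1, no filter, a mean of at least 5 FPKM, TPM, quantile normalization, median centring, no trend, array weights, a replicate block, voom on recovered fragments and leaving out each library. Promoters were those of RefSeq (GRCm38.p6).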

Additional observations from a re-analysis of the deposited data

How the results depend on the processing

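Across up to 16 alternative fits per gene, 19 of the 26 called genes followed kept their direction and call. The others (Lpcat3, Soat1, Crebbp, Ncoa3, Cyp27a1, Rxrb and Emg1) kept their direction. Ncor1, Scd1, Npc2 and Lpcat4 were not followed. Rxra, Nceh1 and Abcg1 were among the 19 (adjusted p from limma at most 0.0113, 0.00231 and 0.0442), though a mean of at least 5 FPKM leaves out Rxra, Abca1, Mylip, Apoe, Insig2 and Crebbp, which have 15. Of the 9 members tested, 1 gene passed both thresholds with a pseudocount of 0.1, scaled to TPM and with voom, each time Rxra, against 0. No member was called higher with no filter or scaled to TPM (0 against 1), and when a library was left out the number was 0 to 1, and 3 to 4 were called lower, against 4. List genes called higher were 6 with no filter, 7 scaled to TPM, and 6 to 9 without 1 library, against 11, and those called lower 20, 26 and 19 to 22, against 21. Differentially expressed genes were 154 higher and 107 lower with a pseudocount of 0.1, 175 and 108 with voom, 49 and 27 with a mean of at least 5 FPKM, and 116 lower scaled to TPM, against 83 and 56, and genes called higher scaled to TPM were 1088 against 1771. Scaled to TPM, the median log2 fold change over all genes tested was -0.060, against 0.013 with FPKM as deposited. The cause of the changes in these counts was not tested.

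Nr1h2, with a log2 fold change of 0.0006, was negative with array weights (-0.011), quantile normalization (-0.029), TPM (-0.076), and without PGAM5 KD replicate 1 (-0.020) or 3 (-0.030) or control replicate 2 (-0.063). Nr1h3, at -0.0079, was positive with array weights (0.0019) and without PGAM5 KD replicate 1 (0.025) or control replicate 3 (0.062). Without 1 library the values ran from -0.063 to 0.051 for Nr1h2 and from -0.060 to 0.062 for Nr1h3. None of these passed the threshold. Log2 of the ratio of Nr1h2 to Nr1h3 differed by -0.055 to 0.12 without 1 library, and the ratio of Abcg1 to Abca1 by 0.651 to 2.71, against 1.73.

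Libraries with the same replicate number did not deviate together (correlations -0.052 to 0.016), so the numbers do not pair them. With a replicate block, 1440 genes were called higher and 1212 lower, 1 member was higher and 3 were lower, and Soat1 had an adjusted p of 0.0749 from limma. With 18163464 fragments in the smallest library, a count of 0 allows up to 0.119 FPKM of Ch25h, and Rxra rests on as few as 144 fragments.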
